A study of Mus musculus with 12 samples.

Results

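Mouse genes named Zfp followed by a number encode, for the most part, zinc finger proteins that bind DNA or RNA. The 178 genes described here were taken from 390 such rows (Zfp42 was left out) among 35652 gene rows, and they were chosen by their deposited level: at least 20 reads per 1000000 reads (RPM) in both libraries of at least 1 of 6 groups. Which groups reach 20 RPM is therefore a description and not a finding. RNA had been measured by 3′-end sequencing of amplified cDNA from 1 ng of RNA (SC3-seq, in which a read marks the 3′ end of a transcript) in 12 libraries, and the study's stated purpose was to characterise STAG3-cohesin, a cohesin ring that carries the meiosis-linked subunit STAG3.

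The groups, of 2 libraries each, were as follows. Cultured mouse germline stem cells (GSC) came from a line labelled Acrosin-EGFP; beta-Actin-EGFP (AAG), so all GSC groups carry those transgenes. They were labelled Stag3 KO (groups KO1 and KO2) or WT. Germ cells from the testis carried the Vasa-RFPTg/0 reporter, in which Vasa (Ddx4) regulatory sequence drives a red fluorescent protein in germ cells, and were labelled E16, E17 (embryonic days 16 and 17) and P7 (postnatal day 7). Whether KO1 and KO2 are single clones, and whether a group's 2 libraries come from different cultures or animals, is not stated. The p-values below cover only the spread between libraries, which may be technical.

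C2H2 zinc finger proteins read DNA through tandem fingers, each of which contacts a few bases. Many mouse members also carry a KRAB box, which recruits TRIM28 (KAP1) and, through it, SETDB1 and HP1 proteins that lay down and bind repressive H3K9 methylation, chiefly at retroelements and imprinted regions. Male germ cells re-establish DNA methylation around the fetal stages sampled here, a period in which such repressors are of interest.

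Total reads per library, spike-ins included, ran between 1938644 (E17) and 4596607 (GSC WT), so that 20 RPM stood for between 34.6 and 80.3 reads. Germ cell markers were present in every library (summed level of 11 markers 3434 to 5356 RPM). Summed markers of other cell types were higher in the fetal libraries. In RPM, 5 endothelial markers summed to 147 to 221 in the fetal libraries, 18.2 to 20.4 at P7 and 5.55 to 11.5 in GSC, and 6 erythroid markers to 91.3 to 273 in the fetal libraries, 12.5 to 82.5 at P7 and 0 to 0.272 in GSC. Vwf made up most of the fetal endothelial sums (192 and 176 at E16, 95.9 and 99.95 at E17, 2.30 and 1.24 at P7). Pecam1, Tek and Cdh5 were also higher in each fetal library than at P7, whereas Kdr was higher at P7 (3.95 and 6.18) than at E16 (1.99 and 0.352). The 12 Sertoli cell markers found, with Amh at 0 throughout, summed to 191 to 241 in the fetal libraries, 71.7 to 117 at P7 and 32.9 to 63.9 over all GSC libraries, and 12 fibroblast and feeder markers to 482 to 803, 420.4 to 432 and 274 to 323 in the same order. Within the fibroblast and feeder list, Fn1 (146 to 184 in the fetal libraries, 263 and 222 at P7) and Col1a1 were higher at P7. Postn, Thy1 and Vim were higher in each fetal library than at P7. The part of these other cells in the values below was not tested. In such bulk RNA, fewer cells of a type and less RNA per cell cannot be told apart. The 2 E16 libraries differed most (chi-square per gene 5.96, against 1.53 to 3.93 in the other groups).

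The sequences shown are promoter windows, from 250 bases before to 50 after the annotated start (RefSeq, GRCm38.p6), of 4 members with large differences below for which a window was given. They are written 5′ to 3′ on the gene's strand, and capitals mark motif hits, of which the Zfp467 and Zfp592 windows hold none. Zfp518a lies at chr19:40894455-40894754 on the plus strand, Zfp467 at chr6:48445041-48445340 on the minus strand, Zfp219 at chr14:52020684-52020983 on the minus strand (the first of 2 windows) and Zfp592 at chr7:80993434-80993733 on the plus strand.
Zfp518a: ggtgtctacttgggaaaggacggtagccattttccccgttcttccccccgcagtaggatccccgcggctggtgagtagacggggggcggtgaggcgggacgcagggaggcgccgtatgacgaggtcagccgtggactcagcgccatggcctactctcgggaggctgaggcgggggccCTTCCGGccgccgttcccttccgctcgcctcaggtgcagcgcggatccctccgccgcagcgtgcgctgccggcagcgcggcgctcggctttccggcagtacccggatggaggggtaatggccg
Zfp467: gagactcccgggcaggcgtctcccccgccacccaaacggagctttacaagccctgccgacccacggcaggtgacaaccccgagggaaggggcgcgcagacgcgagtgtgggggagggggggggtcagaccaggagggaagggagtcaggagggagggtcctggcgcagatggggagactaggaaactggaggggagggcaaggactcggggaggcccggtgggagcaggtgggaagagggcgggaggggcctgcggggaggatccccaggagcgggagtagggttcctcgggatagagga
Zfp219: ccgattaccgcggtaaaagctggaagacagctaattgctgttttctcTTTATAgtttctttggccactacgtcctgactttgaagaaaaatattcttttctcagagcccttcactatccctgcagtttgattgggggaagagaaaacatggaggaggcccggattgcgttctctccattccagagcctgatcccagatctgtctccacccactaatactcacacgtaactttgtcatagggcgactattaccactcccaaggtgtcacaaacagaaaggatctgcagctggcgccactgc
Zfp592: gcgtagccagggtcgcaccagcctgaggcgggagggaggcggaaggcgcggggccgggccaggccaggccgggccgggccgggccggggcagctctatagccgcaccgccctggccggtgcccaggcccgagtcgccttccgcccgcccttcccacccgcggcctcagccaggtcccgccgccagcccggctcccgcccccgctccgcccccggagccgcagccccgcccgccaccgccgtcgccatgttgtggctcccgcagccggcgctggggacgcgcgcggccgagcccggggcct
The motifs searched on both strands were an ETS site (CCGGAAG), an E2F site (TTCCCGC) and a TATA box (TATAAA), and no printed window held more than 1 hit, so none overlapped. The palindromic NRF1 consensus was also searched, and no printed window held it. Zfp518a holds the ETS letters and Zfp219 the TATA letters, each on the opposite strand. No window was given for Zfp462, Zfp703 or Zfp568. Over the 143 members with a window, the ETS letters stood in 23.1%, against 20.6% of the 7490 other genes that met the same level rule and 9.12% of all 27025 windows. The E2F letters stood in 11.2% of member windows, 9.41% of those other genes' and 4.66% of all. The NRF1 letters stood in 5.59% of member windows (8 of 143), 2.24% of those other genes' and 0.977% of all, a difference that was not tested. TATA letters stood in 7.69% of member windows, 6.42% of those other genes' and 14.2% of all windows. Member windows held a median of 17 CpGs, fewer than the 22 of the other genes at that level and more than the 7 of all windows. These are letter matches and not sites.

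Proteins translated from the annotated coding sequences were available for 177 members. All but 5 held a C2H2 finger pattern, and the exceptions were Zfp185 (a LIM-domain cytoskeletal protein), Zfp330, Zfp36 (the mRNA decay factor tristetraprolin, with CCCH fingers), Zfp703 and Zfp839. A KRAB box pattern was found in 74 of the 177, against 138 of 206 among the Zfp-named genes that did not reach the level. Members with the KRAB pattern held a median of 12 finger patterns and the others 7, up to 36 in a single protein. The pattern is strict and misses some KRAB proteins: Zfp445, which acts with TRIM28, was not matched. Chromosome 7 held 37 members, chromosome 17 held 22 and chromosome 8 held 14, and 94 members had another member within 500000 bases. Reads of near-identical neighbours may have been split between copies, and 63 members overlap another annotated gene, from which reads cannot be told apart because the strand setting of the counting was not given.

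The members reached 20 RPM most often at P7 (129 of 178), then in GSC KO1 (124), KO2 (122) and WT (115), at E17 (112) and at E16 (61). They reached it in all 6 groups in 42 cases and in a single group in 34, of which 18 were E17 and 10 were P7. Just inside the rule lay Zfp866 (20.01), Zfp719 (20.2) and Zfp770 (20.4), and just outside Zfp661 (19.9), Zfp775 (19.9) and Zfp777 (19.6), each by the lower library of its best group. The group with the highest mean was P7 for 62 members and E17 for 46, whereas E16 was lowest for 96. The highest group mean was a median 2.74 times the lowest; Zfp346, a double-stranded RNA-binding protein, varied least (1.23 times). Summed over members, the levels in RPM were 5206 and 4528 at E16, 6409 and 6413 at E17, 8197 and 7700 at P7, 7364 and 7436 in GSC KO1, 7314 and 7240 in KO2, and 6693 and 7164 in WT.

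**Figure D1:**
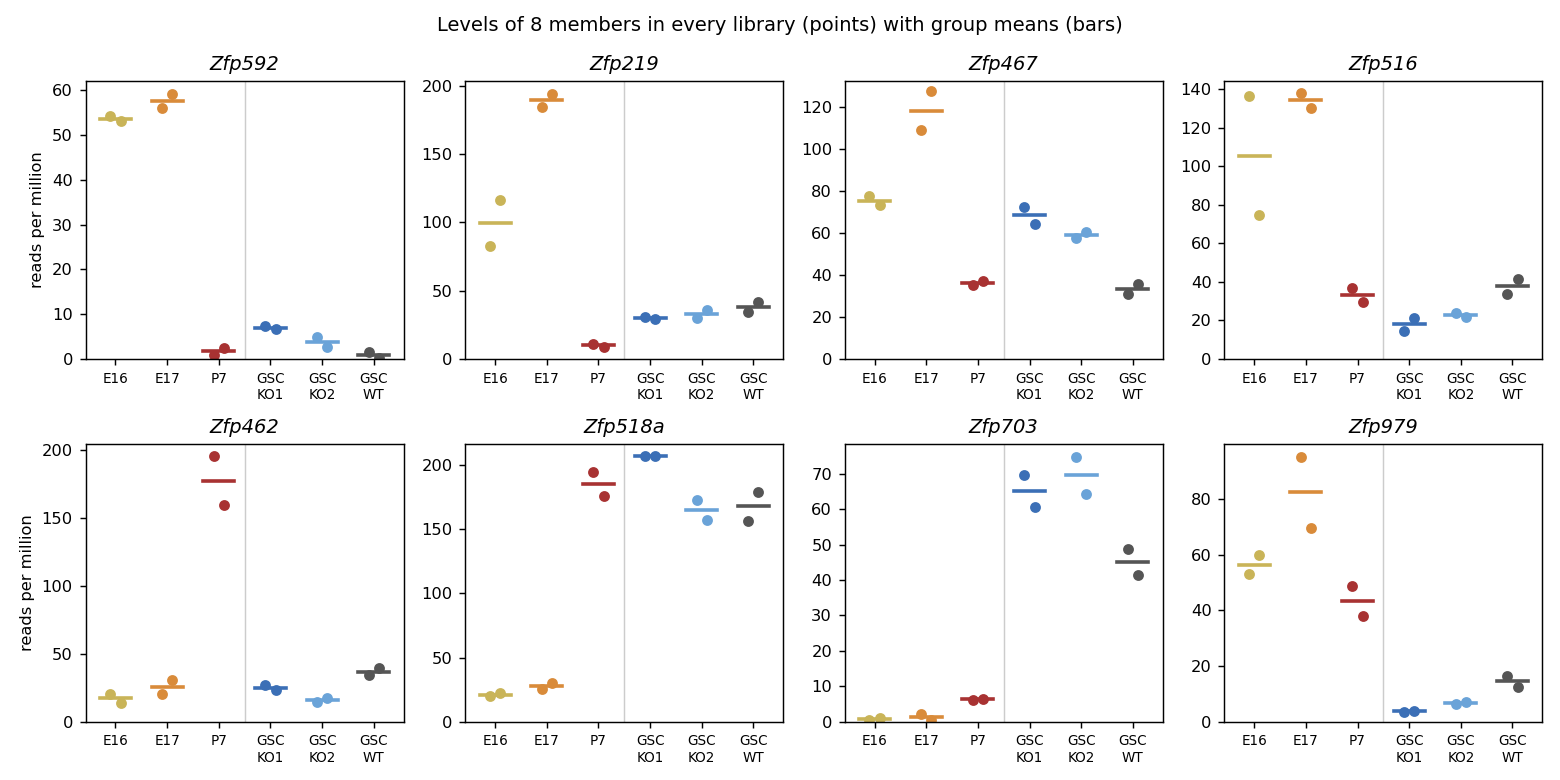
Levels in RPM (vertical axes, from 0) of 8 members in each of the 12 libraries, as points, with the group mean as a bar; groups run along the horizontal axes. Zfp592 and Zfp219 are high at E16 and E17 and low at P7, whereas Zfp462 and Zfp518a are high at P7; Zfp703 is highest in the 3 GSC groups. These are levels in RPM. With ERCC spike-in RNA as the scale, which shifted all genes downwards by a similar amount, P7 was below E17 for all 150 members read.

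In the comparisons below, a gene passed the test when edgeR's quasi-likelihood test gave a Benjamini-Hochberg adjusted p under 0.05 over all genes tested. A member that reached 20 RPM on only 1 of the 2 sides, and in no group outside the comparison, had been chosen through that side: its values are given without a test and it is left out of the counts. E16 lies outside P7 against E17, and the KO groups lie outside the comparisons of testis germ cells with GSC WT. Members that reached 20 RPM only in fetal groups, or only in GSC groups, can therefore remain in those counts. The rule that picked called members to be named also required that the libraries of the 2 sides did not overlap. For members named by that rule, statements below that libraries lay apart restate the rule and are not further support. The share of all genes tested whose libraries lay apart in this way is not given. Fold changes are log2 values on the TMM scale, which assumes that most genes do not change. Using ERCC RNA as the scale instead shifts all genes of a comparison by nearly the same amount. A direction turned round by it therefore describes the scale and not particular members. The share of all genes called with ERCC RNA as the scale is not given, so member counts on that scale also describe the scale. Because the libraries were made from 1 ng of RNA, neither scale is read here as amounts per cell.

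Stag3 itself, the targeted gene, had 295 and 304 RPM in GSC KO1 and 137 and 152 in KO2, against 385 and 420 in WT. The KO libraries were lower, with no overlap (log2 fold change of the KO mean −1.0 ± 0.07 SE); where the deletion lies relative to the 3′ end read here is not given in the sources used here, so this does not check the knockout itself.

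In the cells labelled Stag3 KO, few Zfp members changed. Against WT, the mean of the 2 KO groups was higher for 15 and lower for 8 of the 167 members read, and 144 did not pass; over all genes tested 8.64% were higher and 10.6% lower (19.2% in both directions). Zfp467, Zfp185 and Zfp62 were among those that rose, and Zfp979, Zfp516, Zfp462 and Zfp553 among those that fell. The median log2 fold change was 0.021 over the members and 0.0021 over all genes. All 178 members together gave 9.55% higher and 4.49% lower, and the other genes that met the same level rule 9.44% and 12.6%. Without the members chosen through 1 side, the members gave 8.98% and 4.79%. The share higher thus lay near the background and the share lower below it, a difference that was not tested.

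Zfp467, a zinc finger protein that steers mesenchymal progenitors towards fat and away from bone, had 72.7 and 64.2 RPM in KO1 and 57.5 and 60.5 in KO2, against 30.8 and 35.6 in WT. Every KO library lay above both WT libraries (log2 fold change 0.89 ± 0.14, adjusted p = 5.48e-07). The rule for naming members required such a separation. It held for all 15 members called higher and for 7 of the 8 called lower. That count has no share over all genes beside it and adds no support to the calls. Zfp185 had 14.1 and 17.8 in KO1 and 13.2 and 20.3 in KO2, against 6.81 and 6.98 in WT, again without overlap (1.19 ± 0.28, adjusted p = 0.000771). Zfp62 had 50.02 and 52.7 in KO1 and 60.8 and 66.0 in KO2, against 38.7 and 35.9 in WT (0.56 ± 0.14, adjusted p = 0.00167).

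Among the falls, Zfp979, a KRAB member of a chromosome 4 cluster of close copies, had 3.53 and 3.84 RPM in KO1 and 6.21 and 7.21 in KO2, against 16.6 and 12.5 in WT (log2 fold change −1.59 ± 0.30, adjusted p = 2.84e-05). Zfp516, an activator of brown fat genes, had 14.7 and 21.3 in KO1 and 23.8 and 21.9 in KO2, against 33.8 and 41.6 in WT (−0.95 ± 0.18, adjusted p = 1.52e-05). Both were lower in all 4 KO libraries than in either WT library. Zfp462, which in embryonic stem cells works with HP1 and the H3K9 methyltransferases G9a and GLP, had 26.8 and 23.4 in KO1 and 14.9 and 17.5 in KO2, against 34.3 and 39.4 in WT (−0.92 ± 0.17, adjusted p = 2.64e-05). Zfp553 had 37.96 and 45.0 in KO1 and 51.8 and 54.7 in KO2, against 65.6 and 72.3 in WT (−0.61 ± 0.13, adjusted p = 0.000197). These 4 members overlap other annotated genes (Gm13155 for Zfp979, 4930592I03Rik for Zfp516, Gm42289 and Gm8364 for Zfp462, Gm4532 for Zfp553), as did 7 of the 8 members that fell and 5 of the 15 that rose, among them Zfp185 (Mir2137) and Zfp62 (Gm18583).

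The 7 members just named were the ones DESeq2 called, although of these only Zfp979 also passed a test against a 1.5-fold change. They kept their edgeR call whichever single library was left out. The other 12 named by the rule lost it without at least 1 library (highest adjusted p per gene from edgeR 0.0783 to 0.544), 9 of them without WT replicate 2. The WT numbers follow the sample titles, and the names of the deposited tables number those 2 libraries the other way round. They were higher for Zfp592 (2.41 ± 0.61), Zfp367 (0.73 ± 0.23), Zfp445 (0.73 ± 0.17), Zfp948 (0.63 ± 0.21), Zfp799 (0.61 ± 0.18), Zfp568 (0.60 ± 0.18), Zfp711 (0.58 ± 0.16), Zfp703 (0.53 ± 0.13) and Zfp407 (0.51 ± 0.18), and lower for Zfp37 (−1.24 ± 0.35), Zfp867 (−0.59 ± 0.20) and Zfp710 (−0.42 ± 0.14), as log2 fold changes ± SE. Zfp592, whose human counterpart joins ZMYND8 in a chromatin complex, rested on 25, 19, 18 and 10 reads in the KO libraries and 6 and 1 in WT. Zfp617, Zfp329 and Zfp280b also rose, by less, and Zfp428 fell although its libraries overlapped. Of the members that keep imprints or repress at imprinted loci, Zfp445 had 36.5 and 38.1 RPM in KO1 and 43.5 and 33.0 in KO2, against 18.0 and 25.9 in WT, and Zfp568, a repressor of Igf2, had 33.3 and 31.8 in KO1 and 33.2 and 39.1 in KO2, against 24.2 and 19.4 in WT; without WT replicate 1 the first missed the threshold (adjusted p up to 0.0783) and without KO2 replicate 2 or WT replicate 2 the second did (up to 0.180, edgeR).

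**Figure D2:**
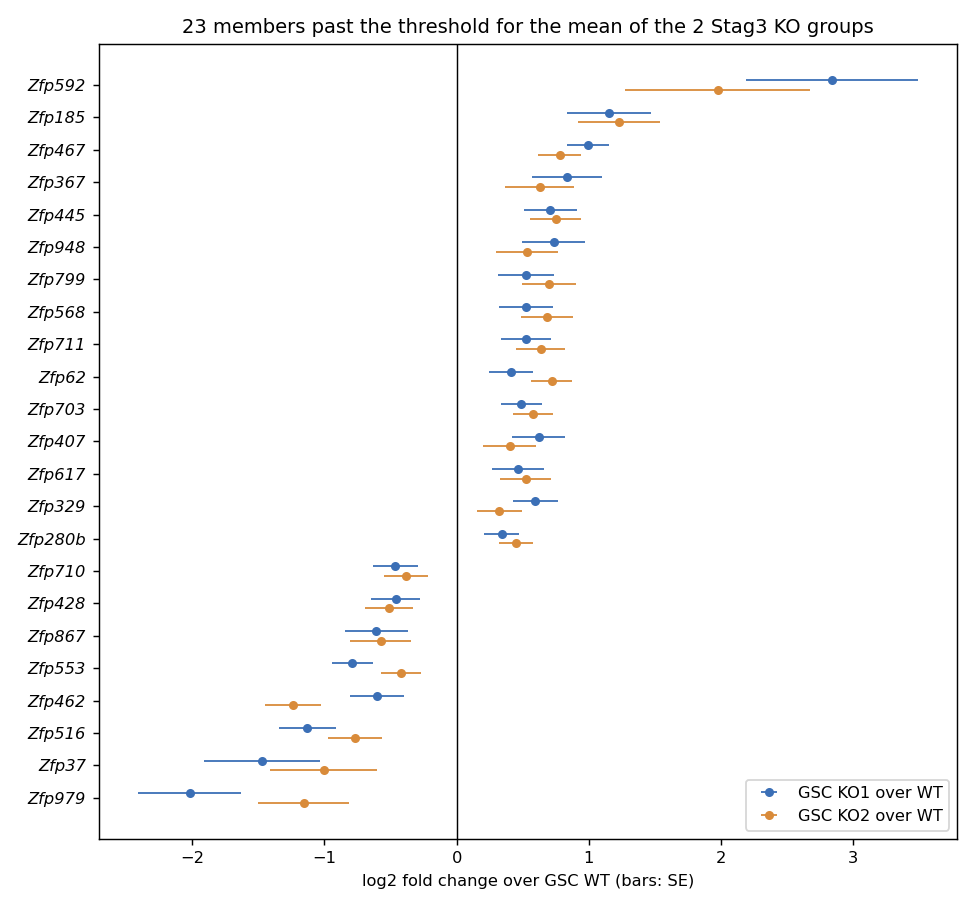
Log2 fold change over GSC WT (horizontal axis; bars are SE) of KO1 and KO2 for the 23 members that passed the threshold for their mean, ordered by that mean (vertical axis). Zfp592 is farthest to the right (2.84 ± 0.65 in KO1) and Zfp979 farthest to the left (−2.02 ± 0.39 in KO1); both groups are set against the same 2 WT libraries, so the 2 points of a gene are not independent.

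Each KO group alone gave fewer calls, and both share the WT libraries. KO1 was higher than WT for 10 and lower for 5 of 175 members (6.24% and 7.4% of all genes, 13.6% in both directions), and KO2 was higher for 15 and lower for 7 of 175 (7.19% and 8.45%, 15.6% in both directions). The split of these calls moved with the scale: KO1 gave 4 higher and 6 lower with ERCC RNA and 15 and 4 on library totals, and KO2 gave 14 and 3 with ERCC RNA and 17 and 3 on library totals. By role, the DNA-binding regulators without KRAB gave 3 higher and 2 lower of 19 for the KO mean, the partners of chromatin complexes 1 higher of 8, the repressors of retroelements and imprinted loci 2 higher of 4 (Zfp445 and Zfp568) and the testis and germ cell genes 1 lower of 6 (Zfp37). None passed among the 12 RNA, ribosome and spindle proteins or the 3 ubiquitin and SUMO ligases. Zfp207 (BuGZ, a spindle and kinetochore factor), Zfp598 (the ligase that marks collided ribosomes) and Zfp106 (an RNA-binding protein needed by motor neurons) were among those 12 (the role lists overlap, and Zfp598 is also 1 of the 3 ligases), with log2 fold changes of −0.16 ± 0.07, 0.0035 ± 0.11 and 0.12 ± 0.10. Members with the KRAB pattern gave 3 higher and 2 lower of 68, and members without it 12 and 6 of 99. Of 30 KRAB corepressors and silencing factors, 3 rose and none fell: Cbx5 (HP1 alpha, 0.59 ± 0.09), Chd4 (NuRD remodeller, 0.34 ± 0.07) and Uhrf1 (0.29 ± 0.10). Beside these role and class counts stand 8.64% of all genes higher and 10.6% lower for the KO mean. Among the other genes that met the level rule, 9.44% were higher and 12.6% lower. The share of the 30 that rose lay near those shares higher. Trim28 changed by −0.16 ± 0.07 and did not pass (edgeR adjusted p = 0.0794). In the same libraries 8 of 11 germ cell markers were lower in KO than in WT (summed level 3434 to 3989, against 4240 to 4537 RPM), and 5 of 10 fibroblast and feeder markers were lower (273.5 to 308 in KO, against 322.7 to 323 in WT). Sertoli cell markers summed to 62.8 to 63.9 in KO1 and 43.2 to 48.3 in KO2, against 32.9 to 36.6 in WT. Of the 5 tested, Aard (1.38 ± 0.23) and Clu (1.93 ± 0.51) were higher for the KO mean and Wt1 (−0.80 ± 0.27) was lower, while Amh, Fshr, Ptgds and Cst12 were at 0 in every GSC library. For all of these markers their part in these values was not tested.

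A further 11 members had been chosen through 1 side of this comparison and have no test. Zfp511 averaged 24.5 RPM in KO and 13.1 in WT, and Zfp81 averaged 23.9 in KO and 12.8 in WT. The remaining 9 (Zfp472, Zfp958, Zfp866, Zfp951, Zfp768, Zfp719, Zfp41, Zfp239 and Zfp33b) averaged between 19.4 and 25.3 in KO and between 16.4 and 22.6 in WT.

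KO1 and KO2 differed for 1 of 172 members, against 0.833% of all genes (0.547% higher and 0.286% lower). Zfp704 had 18.2 and 24.1 RPM in KO1 and 32.4 and 40.2 in KO2 (log2 fold change −0.79 ± 0.21, edgeR adjusted p = 0.0471), with 19.3 and 25.7 in WT. Leaving out any of those libraries ended the call (adjusted p 0.0722 to 0.608). The lone call stood beside 19 members with an unadjusted p under 0.05 among all 178.

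Between E16 and E17 few members changed, and none kept its call without E17 replicate 1. E17 was higher for 4 and lower for 5 of 160 members (1.64% and 4.96% of all genes, 6.6% in both directions). All 178 members gave 3.93% higher and 2.81% lower, and the other genes that met the level rule 2.11% and 7.78%. Zfp318, a nuclear protein that B cells need to make IgD beside IgM, had 226 and 194 RPM at E17 and 111 and 90.5 at E16, with no overlap (log2 fold change 0.73 ± 0.15, adjusted p = 0.0075); without E17 replicate 1 it did not pass (adjusted p = 0.171, edgeR). The other calls were Zfp868 (1.10 ± 0.29), Zfp654 (1.01 ± 0.27) and Zfp664 (0.57 ± 0.16), which were higher, and Zfp277 (−1.30 ± 0.33), a partner of the Polycomb protein BMI1, Zfp184 (−1.09 ± 0.29), Zfp386 (−0.82 ± 0.20), Zfp106 (−0.65 ± 0.15) and Zfp598 (−0.62 ± 0.18), which were lower. All 9 lost the call without E17 replicate 1 (adjusted p 0.171 to 0.310), and the calls numbered 0 without that library, 1 without E17 replicate 2, 4 without either P7 library, 19 without E16 replicate 2 and 35 without E16 replicate 1. On library totals without TMM, which put the median of all genes at 0.35, 23 members were higher and none lower, and with spiked-in ERCC RNA as the scale, which put it at 3.02, 159 of 160 were higher. ERCC reads were 0.194% and 0.231% of the total at E17, against 1.22% and 1.52% at E16. The 18 members that reached the level in E17 only averaged 21.9 to 42.7 RPM at E17 and 7.90 to 23.9 at E16; Zfp653 was highest among them at E17 (42.7, against 22.6 at E16).

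After birth many members rose relative to all RNA and fewer fell, whereas ERCC scaling, which shifts all genes together, put every member read lower. The P7 and E17 tables also use different gene lists, so age and gene list cannot be told apart here. P7 was higher than E17 for 73 and lower for 20 of 150 members, against 30.2% and 37.8% of all genes (67.9% in both directions), with a median of 0.63 over these members and −0.13 over all genes; with ERCC RNA as the scale, which put the median of all genes at −4.81, all 150 were lower at P7 (ERCC reads were 5.85% and 4.69% of the total at P7). All 178 members gave 46.1% higher and 17.4% lower, and the other genes that met the same level rule gave 41.9% and 29.8%. Among members that reached the level on both sides, 33 of 81 were higher and 10 lower (40.7% and 12.3%), against 45.5% and 19.5% of other such genes. The share higher was thus above that of the other genes in the wider set and below it in the narrower one. The share lower was below that of the other genes in both sets. These differences were not tested.

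Zfp462 had 195 and 159 RPM at P7 and 20.2 and 30.4 at E17 (log2 fold change 2.95 ± 0.22, adjusted p = 3.98e-08). Zfp518a, whose promoter is printed above, had 195 and 176 at P7 and 25.4 and 29.8 at E17 (2.90 ± 0.19, adjusted p = 1.12e-08). For both genes each P7 library lay far above each E17 library. Zfp292, a large protein disrupted in a human neurodevelopmental disorder, had 129.9 and 124 at P7 and 22.5 and 19.4 at E17 (2.75 ± 0.31, adjusted p = 2.35e-06). The other rises named were Zfp444 (2.90 ± 0.57), Zfp553 (2.85 ± 0.34), Zfp420 (2.52 ± 0.44), Zfp710 (2.38 ± 0.25), Zfp652 (2.33 ± 0.29), Zfp703 (2.31 ± 0.80), Zfp239 (2.27 ± 0.48), Zfp266 (2.26 ± 0.26) and Zfp26 (2.19 ± 0.29). Of the 24 named in this comparison, Zfp703 alone lost its call when single libraries were left out (adjusted p 0.253 without E17 replicate 2, 0.0896 without P7 replicate 1 and 0.107 without P7 replicate 2, edgeR). Under ERCC scaling, which shifted all genes downwards by a similar amount, the 12 rises turned into falls.

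The falls named reached larger folds. Zfp592 had 0.987 and 2.47 RPM at P7 (3 and 8 reads) and 56.1 and 59.1 at E17 (log2 fold change −4.84 ± 0.35). Zfp219, a partner of Sox9 in cartilage, had 10.9 and 8.96 at P7 and 184 and 194 at E17 (−4.10 ± 0.24, adjusted p = 3.47e-09); it overlaps Arhgef40 and Tmem253. Zfp980, another member of the chromosome 4 cluster of close copies, had 1.32 and 2.16 at P7 (4 and 7 reads) and 46.2 and 31.9 at E17 (−4.28 ± 0.41). In all of these the groups stood far apart. Zfp592 and Zfp980 reached 20 RPM at E16 and E17 only, as did Zfp943 below. These members were thus chosen through the fetal stages, and their calls add no support. Zfp516 had 36.8 and 29.4 at P7 and 138 and 130.3 at E17 (−1.86 ± 0.23), and Zfp467 had 35.5 and 37.1 at P7 and 109 and 128 at E17 (−1.55 ± 0.18). Zfp568 (−2.0 ± 0.23), Zfp946 (−1.77 ± 0.26), Zfp943 (−1.51 ± 0.24), Zfp938 (−1.25 ± 0.27), Zfp618 (−1.22 ± 0.23), Zfp687 (−1.14 ± 0.26) and Zfp692 (−1.09 ± 0.21) completed the list.

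**Figure D3:**
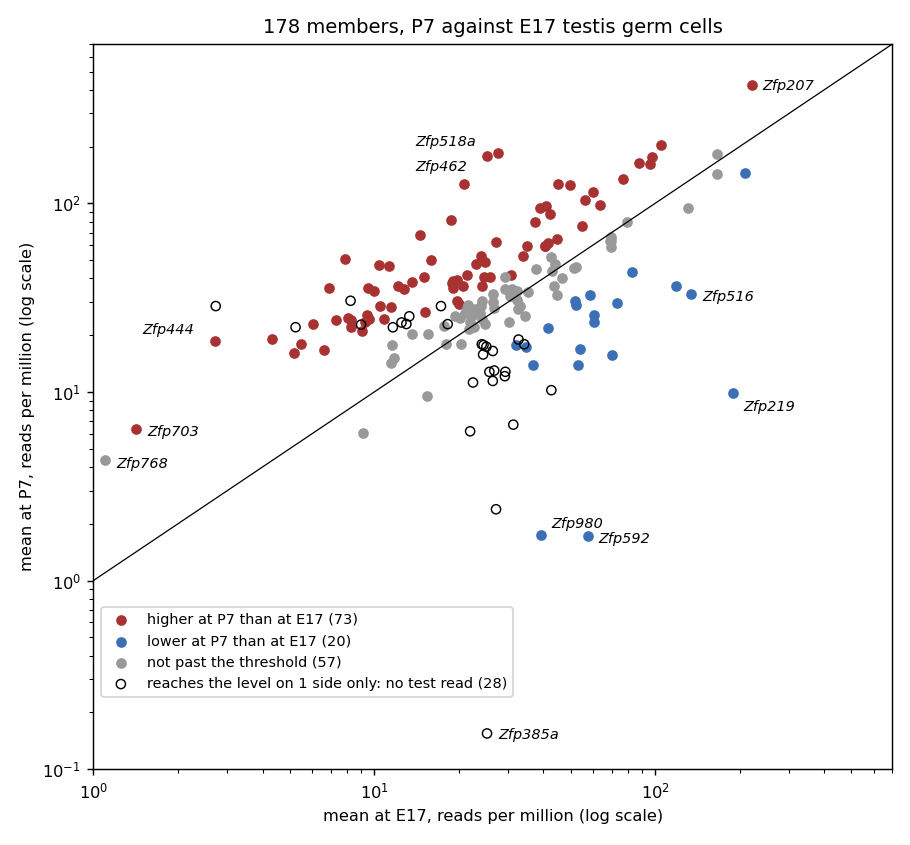
Mean level at P7 (vertical axis) against mean level at E17 (horizontal axis) of the 178 members, in RPM on log scales; the line marks equal levels, and open circles are members chosen through 1 side. More of the members that were read lie above the line, among them Zfp462 and Zfp518a. Of those read, Zfp592, Zfp980 and Zfp219 lie farthest below it, and Zfp592 and Zfp980 reached 20 RPM at E16 and E17 only. Zfp385a, an open circle, is lower still. With ERCC RNA as the scale, which shifted all genes downwards by a similar amount, all 150 members read were lower at P7.

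The partners of human ZMYND8 did not move together: Zfp592 and Zfp687 fell, whereas Zfp532 had 61.8 and 61.8 RPM at P7 and 37.6 and 45.5 at E17 (0.73 ± 0.21) and rose. Among partners of chromatin complexes, 5 were higher and 2 lower of 8. Of the DNA-binding regulators without KRAB, 9 were higher and 3 lower of 17, among them Zfp281, a regulator of pluripotency (119 and 134 at P7, 50.3 and 40.3 at E17; 1.64 ± 0.19). All 3 ubiquitin and SUMO ligases were higher: Zfp598 (1.05 ± 0.17), Zfp91 (0.96 ± 0.19) and Zfp451 (0.91 ± 0.15). RNA, ribosome and spindle proteins gave 5 higher and 1 lower of 10, with Zfp207 at 431 and 418 at P7 and 219.6 and 222 at E17 (1.10 ± 0.12). Of all genes 67.9% were called in this comparison (30.2% higher and 37.8% lower). Every direction in this paragraph is relative to all RNA, and with ERCC RNA as the scale each of the members named was lower at P7.

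Members with the KRAB pattern gave 27 higher and 8 lower of 60 (median 0.54), and members without it 46 and 12 of 89 (median 0.73). Of the 30 corepressors and silencing factors of the KRAB pathway, 20 were higher and 4 lower at P7 than at E17 (median 1.04), on the same TMM scale, where 30.2% of all genes were higher and 37.8% lower (41.9% and 29.8% of the other genes that met the level rule). Setdb1, the H3K9 methyltransferase, averaged 249.8 RPM at P7 and 80.0 at E17 (1.80 ± 0.18), Trim28 averaged 324 at P7 and 270.0 at E17 (0.42 ± 0.12), and Chd3, a NuRD remodeller, averaged 66.9 at P7 and 228 at E17 (−1.61 ± 0.17). Uhrf1, which brings DNMT1 to replicated DNA, averaged 92.0 at P7 and 5.59 at E17 (4.21 ± 0.32). The largest change of the 30 was that of Sumo2, which averaged 974 at P7 and 10.1 at E17 (6.73 ± 0.19). Sumo3 went the other way, averaging 245 at P7 and 746 at E17 (−1.45 ± 0.11). The part of the other gene list of the P7 tables in such values was not tested.

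Neighbouring members did not all share a direction on the TMM scale, although with ERCC RNA as the scale every member read was lower at P7. On chromosome 17, between Zfp51 and Zfp945 (chr17:21450374-22867309, GRCm38, a stretch chosen after its values were seen), 10 of 17 Zfp-named genes were members and all 10 held the KRAB pattern. Zfp943 had 17.8 and 16.1 RPM at P7 and 58.9 and 48.7 at E17, and Zfp946 had 12.5 and 15.5 at P7 and 45.1 and 61.2 at E17, each with no overlap. Zfp943 had been chosen through the fetal groups alone. Zfp942, which lies beside Zfp943, had 37.8 and 39.6 at P7 and 21.4 and 16.7 at E17. Of the 8 that were read, 4 were lower (Zfp51, Zfp943, Zfp946 and Zfp945), 2 higher (Zfp942, 1.2 ± 0.26, and Zfp229, 1.05 ± 0.28) and 2 did not pass.

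The 28 members chosen through 1 side of this comparison held some of the widest gaps, given without a test. Zfp385a, a p53 partner, had 0 and 0.309 RPM at P7 (0 and 1 read) and 29.5 and 20.9 at E17. Zfp354a had 2.30 and 2.47 at P7 and 26.01 and 28.3 at E17. In the other direction, Zfp936 averaged 28.5 at P7 and 2.73 at E17, and Zfp36 had 21.4 and 24.1 at P7 and 12.7 and 5.23 at E17. Zfp541, which meiotic cells need to leave pachytene, had 16.4 and 15.1 at P7 and 23.7 and 25.1 at E17.

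GSC are cultured from postnatal spermatogonia, and between P7 germ cells and WT GSC the members split evenly. P7 was higher for 21 and lower for 20 of 168 members, against 16% and 15% of all genes (31% in both directions), and 127 did not pass (median log2 fold change −0.011, and 0.032 over all genes). The split moved with the scale: ERCC RNA gave 4 higher and 57 lower, with the median of all genes at −0.42, and library totals gave 27 and 13. All 178 members gave 14% higher and 11.2% lower, and the other genes that met the level rule 19.3% and 21.4%. Zfp462 was the largest of the rises tested (195 and 159 at P7, 34.3 and 39.4 in GSC WT; 2.13 ± 0.18, adjusted p = 7.53e-12). Zfp618, a partner of the 5-hydroxymethylcytosine reader UHRF2, had 23.7 and 23.2 at P7 and 4.08 and 6.73 in GSC WT (1.97 ± 0.31), and Zfp979 had 48.7 and 38.02 at P7 and 16.6 and 12.5 in GSC WT (1.44 ± 0.23). Libraries of the 2 groups did not overlap for any of these. Zfp386 (1.34 ± 0.20), Zfp292 (0.80 ± 0.19) and Zfp644 (0.76 ± 0.18), a partner of G9a and GLP, were also higher and kept their calls without any single library. With ERCC RNA as the scale Zfp386 kept its call, whereas Zfp292 (0.24, adjusted p = 0.529, edgeR) and Zfp644 (0.20, adjusted p = 0.613) did not pass, and both also missed the test against a 1.5-fold change. By role, the DNA-binding regulators without KRAB gave 4 higher and 3 lower of 19, the chromatin partners 3 and 1 of 8, the RNA, ribosome and spindle proteins 1 and 2 of 11, and the 30 corepressors 7 and 5; none of the 3 ligases passed.

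Zfp703, a corepressor amplified in luminal breast cancer, had 6.25 and 6.49 RPM at P7 and 48.7 and 41.4 in GSC WT (log2 fold change −2.94 ± 0.26). Zfp219 had 10.9 and 8.96 at P7 and 34.6 and 41.4 in GSC WT (−2.07 ± 0.24), Zfp768 had 5.59 and 3.09 at P7 and 27.2 and 17.9 in GSC WT (−2.51 ± 0.42), and Zfp787 had 5.59 and 6.49 at P7 and 25.3 and 20.2 in GSC WT (−2.03 ± 0.32). Each of these 4 was lower in both P7 libraries than in either GSC library. Zfp687 (−1.23 ± 0.20), Zfp574 (−1.16 ± 0.23) and Zfp444 (−1.06 ± 0.25) fell by less, and Zfp385a was at 0 and 1 read at P7 and at 16 and 17 reads in GSC WT. Zfp703, Zfp768, Zfp787, Zfp574 and Zfp444 reached 20 RPM in GSC groups only. These members were thus chosen through the cultured cells, and their calls add no support. The calls of 10 other named members ended without at least 1 library: Zfp541 (1.30 ± 0.37), Zfp945 (1.02 ± 0.29), Zfp948 (0.86 ± 0.24), Zfp532 (0.79 ± 0.19), Zfp266 (0.75 ± 0.18), Zfp871 (0.75 ± 0.25), Zfp354a (−1.58 ± 0.54), Zfp688 (−0.86 ± 0.30), Zfp213 (−0.85 ± 0.26) and Zfp707 (−0.74 ± 0.21). Their highest adjusted p was 0.0504 to 0.241 (edgeR); 9 of them lost the call without P7 replicate 1 and 6 without GSC WT replicate 1, and the count of all member calls was then 18 and 21. With ERCC RNA as the scale Zfp541, Zfp945, Zfp948, Zfp532, Zfp266 and Zfp871 lost their calls too.

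The P7 tables use another gene list, so only genes in both lists were compared. The gene list differs together with age and culture in every P7 comparison, so their parts in the values cannot be told apart. Among shared genes, Sumo2 averaged 974 RPM at P7, 10.1 at E17 and 15.6 in GSC WT. The 10 members chosen through P7 alone are given without a test: Zfp251 averaged 30.4 RPM at P7 and 2.97 in GSC WT, Zfp185 averaged 28.5 at P7 and 6.89 in GSC WT, and the other 8 averaged 22.0 to 28.5 at P7 and 9.46 to 21.2 in GSC WT.

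Relative to all RNA, though not with ERCC RNA as the scale, most members were lower in fetal germ cells than in GSC WT. The mean of E16 and E17 was higher for 14 and lower for 102 of 153 members, against 41.9% and 32.3% of all genes (74.2% in both directions), with a median of −0.79 and a median over all genes of 0.23; with ERCC RNA as the scale that all-gene median was 2.87, and 137 members were higher and 3 lower. The 25 members left out had all been chosen through the fetal side, with 16 higher and 0 lower. Members that reached the level in GSC groups only stayed in, so the choice of members tilts the 14 and 102 towards lower. All 178 members gave 16.9% higher and 57.3% lower, beside 32.5% and 46% of the other genes that met the same level rule, and members that reached the level on both sides 7 higher and 49 lower of 78 (8.97% and 62.8%, against 21.6% and 52.9% of other such genes). Summed endothelial, erythroid and Sertoli markers were higher in the fetal libraries, as given above.

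Zfp703 had 0.497 and 1.06 RPM at E16 and 2.31 and 0.523 at E17 (1, 3, 4 and 1 reads), against 48.7 and 41.4 in GSC WT (log2 fold change −5.48 ± 0.31). Zfp518a had 19.9 and 22.2 at E16 and 25.4 and 29.8 at E17, against 156 and 179 in GSC WT (−2.92 ± 0.13, adjusted p = 3.32e-21). Zfp553 had 14.9 and 10.6 at E16 and 11.0 and 4.71 at E17, against 65.6 and 72.3 in GSC WT (−2.94 ± 0.20). All 4 fetal libraries lay below both GSC WT libraries in each case. Zfp768 (−4.06 ± 0.44), Zfp444 (−3.49 ± 0.29), Zfp239 (−3.34 ± 0.38), Zfp787 (−2.28 ± 0.29), Zfp770 (−2.25 ± 0.32), Zfp746 (PARIS, the parkin substrate; −2.25 ± 0.24), Zfp512b (−2.25 ± 0.29), Zfp593 (a ribosome assembly factor; −2.18 ± 0.28) and Zfp710 (−2.16 ± 0.19) were the next falls. Of the falls in this paragraph, Zfp703, Zfp768, Zfp444, Zfp239, Zfp787, Zfp746 and Zfp593 reached 20 RPM in GSC groups only. Those members were thus chosen through the cultured cells, and their calls add no support. With ERCC RNA as the scale the calls of Zfp518a (−0.30, adjusted p = 0.185, edgeR), Zfp553 (−0.30, adjusted p = 0.315) and Zfp239 (−0.74, adjusted p = 0.113) ended. The estimates of Zfp787, Zfp770, Zfp746, Zfp512b, Zfp593 and Zfp710 then turned positive without passing (adjusted p 0.0944 to 0.408), and Zfp703, Zfp768 and Zfp444 kept their calls.

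Of the rises, Zfp618 had 53.7 and 36.3 RPM at E16 and 57.8 and 63.8 at E17, against 4.08 and 6.73 in GSC WT (log2 fold change 3.11 ± 0.28, adjusted p = 1.96e-12). Zfp979 had 53.2 and 59.8 at E16 and 95.4 and 69.6 at E17, against 16.6 and 12.5 in GSC WT (2.1 ± 0.21). Zfp219 had 82.5 and 117 at E16 and 184 and 194 at E17, against 34.6 and 41.4 in GSC WT (1.73 ± 0.16). None of these groups overlapped. Zfp945 (1.59 ± 0.26), Zfp516 (1.5 ± 0.18), Zfp251 (1.44 ± 0.40), Zfp467 (1.37 ± 0.15), Zfp568 (1.20 ± 0.19), Zfp386 (1.03 ± 0.19) and Zfp692 (0.73 ± 0.19) were also higher, and Zfp948 (0.54 ± 0.23) and Zfp335 (0.52 ± 0.18) were higher but lost the call without GSC WT replicate 1 (adjusted p 0.114 to 0.164, edgeR) and, for Zfp948, without GSC WT replicate 2, GSC KO1 replicate 2, E16 replicate 2 or E17 replicate 2 or, for Zfp335, without E17 replicate 1. By role, 13 of 17 DNA-binding regulators without KRAB were lower and 3 higher, 6 of 7 chromatin partners lower, and all 3 ligases lower, on the TMM scale that ERCC scaling turns round for most members. These counts stand beside 32.3% of all genes lower and 41.9% higher, and 46% and 32.5% of the other genes that met the level rule. Of the 30 corepressors 20 were lower and 4 higher, with Trim28 at a mean of 267 in fetal cells and 493 in GSC WT (−1.02 ± 0.09).

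**Figure D4:**
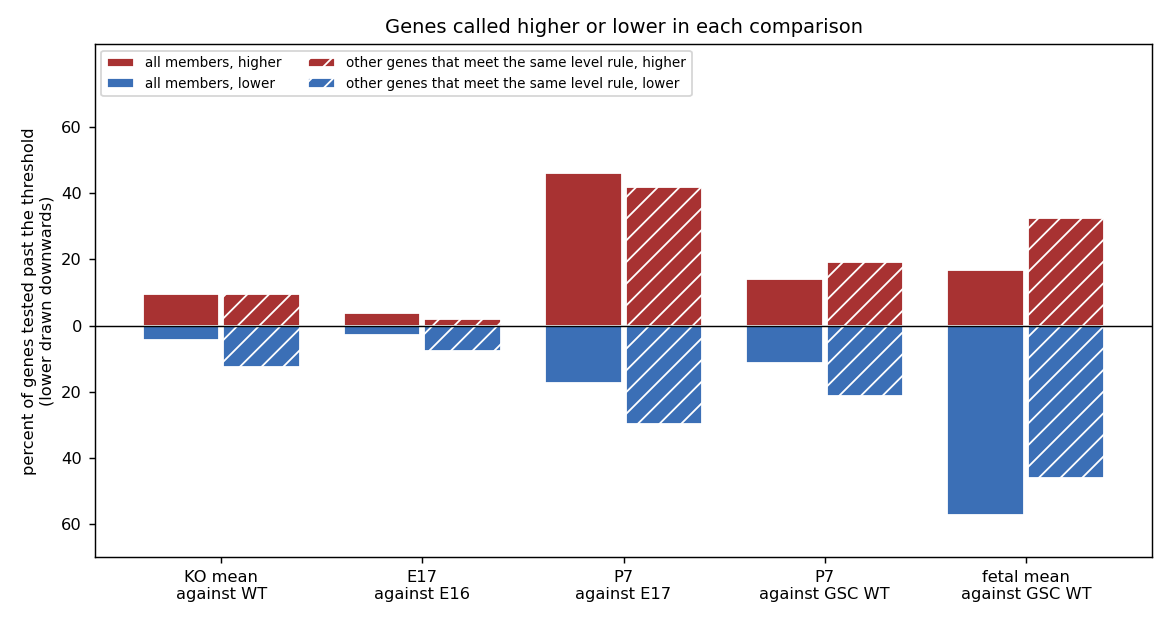
Percent of genes tested that passed the threshold (vertical axis, higher drawn upwards in red and lower downwards in blue) for the 178 members (plain) and for the other genes that met the same level rule (hatched), in 5 comparisons along the horizontal axis. Members and other genes differ most in the fetal comparison (16.9% against 32.5% higher); the members include those chosen through 1 side, and the directions of the age comparisons hold on the TMM scale and not with ERCC RNA as the scale.

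The 25 members chosen through 1 side are given without a test. Zfp592 had 54.2 and 53.2 RPM at E16 and 56.1 and 59.1 at E17, against 1.63 and 0.249 in GSC WT (6 and 1 reads). Zfp980 had 23.4 and 20.8 at E16 and 46.2 and 31.9 at E17, against 1.36 and 4.24 in GSC WT. Zfp943 averaged 50.9 in fetal cells and 16.2 in GSC WT, and Zfp296, a factor of pluripotent cells, averaged 22.5 in fetal cells and 6.96 in GSC WT. The comparisons of age and of culture share the E17, P7 and GSC WT libraries, so their values are not independent of each other.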

How the data were processed

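The members and gene lists were chosen with earlier results of these data known. The labels' protocols describe SC3-seq cDNA libraries from 1 ng of RNA; the submitters' processing notes name cutadapt 1.18, TopHat2 2.1.1, HTSeq 0.9.1, Salmon 1.4.0 and build GRCm38.p6, without roles or a strand setting. The authors deposited whole-number counts per gene and a signal column in reads per 1000000 reads (RPM), in which 1 read was worth the same for every gene of a library. The P7 tables list 34896 genes and the others 35652; the 31685 shared genes were joined by Entrez ID, and 13 members carry another symbol there.

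Members were matched by symbol pattern and the 20 RPM rule. Counts were fitted with edgeR 4.0.16 in R 4.3.3 (quasi-likelihood test, TMM, filterByExpr, Benjamini-Hochberg threshold 0.05 over all genes tested): GSC comparisons on 6 GSC libraries, E17 against E16 and P7 against E17 on 6 in vivo libraries, and the others on all 12. DESeq2 1.42.0 was an alternative. Genes were named where they passed the threshold, were not chosen through 1 side and had libraries that did not overlap, up to 12 per direction by fold change (6 for KO1 against KO2). Members whose role bears on a list, the imprint repressors and members chosen through 1 side are named beside them. The scripts were tested on simulated counts.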

Additional observations from a re-analysis of the deposited data

Results flagged for a closer look

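Zfp704 is listed because its level relative to WT differed between the KO1 and KO2 cells. It had 18.2 and 24.1 RPM in KO1 and 32.4 and 40.2 in KO2 (log2 difference −0.79, edgeR adjusted p = 0.0471), and the call ended without any of these 4 libraries (adjusted p 0.0722 to 0.608).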

How the results depend on the processing

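The counts of members past the threshold moved as follows. DESeq2's Wald test gave 7 for the KO mean (23), 5 for KO1 (15), 4 for KO2 (22), 0 for KO1 against KO2 (1) and 2 for E17 against E16 (9). A test against a 1.5-fold change gave 2, 2, 1, 0 and 0 for those 5, 11 for P7 against GSC WT (41) and 76 for fetal against GSC WT (116). One fit over all 12 libraries gave 12 for the KO mean, 8 for KO1, 10 for KO2 and 0 for KO1 against KO2, and the 4 fetal libraries alone gave 4. Members at 50 RPM gave 10, 7, 12, 0 and 5 for the first 5, 36 for P7 against E17 (93), 20 for P7 against GSC WT and 42 for the fetal mean; at 10 RPM E17 against E16 gave 14. Without members that overlap another gene the counts were 11, 5, 11 and 0 for the 4 GSC comparisons, 56 for P7 against E17, 21 for P7 against GSC WT and 72 for the fetal mean. Chosen after seeing the data, members on both sides gave 13, 5, 11, 0, 43, 22 and 56 in that order, members in all 6 groups gave 3, 1, 4 and 0 for the GSC comparisons, 4 for E17 against E16, 25, 10 and 31 for the rest, and library totals without TMM gave 23 for E17 against E16. Leaving out single libraries gave 16 to 22 for the KO mean, 8 to 16 for KO1 (8 without KO1 replicate 2), 7 to 21 for KO2 (7 without KO2 replicate 2, 13 without KO2 replicate 1), 0 to 2 for KO1 against KO2 (2 without either WT library), 0 to 35 for E17 against E16, 74 to 107 for P7 against E17, 18 to 52 for P7 against GSC WT and 97 to 119 for the fetal mean; a lone library left in a group is assumed to vary like the others. The cause of these shifts was not tested where it is not the smaller set of members or libraries.

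ERCC totals as the scale gave 159 calls for E17 against E16 and 150 for P7 against E17. Under that scale E17 against E16 turned to 1.74 for Zfp277, 1.93 for Zfp184, 2.19 for Zfp386, 2.38 for Zfp106 and 2.39 for Zfp598. P7 against E17 turned to −1.72 for Zfp462, −1.78 for Zfp518a, −1.72 for Zfp444, −1.85 for Zfp553, −1.94 for Zfp292, −2.20 for Zfp420, −2.30 for Zfp710, −2.33 for Zfp652, −2.33 for Zfp703, −2.37 for Zfp239, −2.42 for Zfp266 and −2.48 for Zfp26. The fetal mean turned to 0.34 for Zfp787, 0.36 for Zfp770, 0.37 for Zfp746, 0.39 for Zfp512b, 0.41 for Zfp593 and 0.48 for Zfp710 (log2, against GSC WT), none past the threshold.

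Replicate numbers did not pair the libraries (correlation of same-numbered deviations −0.13 to 0.057 over 9681 genes). With the replicate block the KO mean gave 23 calls and KO1 against KO2 gave 2. Of 172 recomputed counts, 103 stayed within 1.5 times. Depth limits low members: 3 reads stand for 0.748 to 1.73 RPM.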
